A study of Mus musculus with 6 samples.

Results

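The 10 genes described here handle lipid in macrophages: Lpl and Cd36 in uptake, Fabp4 and Fabp5 in intracellular binding, Plin2 in storage, Apoe and Clu as secreted lipid carriers, Abca1 and Abcg1 in efflux, and Pparg as a transcriptional regulator. They were taken by symbol from the deposited table of read counts, which lists 39179 genes, and all 10 were found. The genes were selected on earlier results of this same contrast, in which Lpl and Clu stood out, so the differences between the groups given below describe these libraries and support nothing further. Reads fell on 13368 genes of the table, and 8793 were abundant enough to be tested. 9 of the 10 lipid-handling genes were tested, and Pparg, with counts in a single library, was not.

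The libraries hold RNA of tumor-associated macrophages (TAMs) from melanomas whose tumor cells can or cannot make prostaglandins through cyclooxygenases. Tumors were grown under the skin of C57BL/6 hosts 8 weeks old from a mouse melanoma line driven by mutant BRAF. In the Ptgs-competent group the tumor cells were wild-type, and in the Ptgs-deficient group they had lost both Ptgs1 and Ptgs2, the genes of COX-1 and COX-2, after CRISPR/Cas9 editing. In both groups the host, and with it the sorted macrophage, was unedited. TAMs were sorted by flow cytometry as live CD45+ CD11b+ F4/80+ cells without NK1.1 or Ly6G and with no or dim Ly6C. The titles number 3 libraries per group, called competent and deficient pools below. The study's methods state that tumors were pooled before the sort, that mice of both sexes were used across the study, and nothing says on which day a library was collected, so the p-values below measure the spread between pools.

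Macrophages in tissue take up lipid by several routes and must store it or pass it on, since they cannot break down the sterol ring of cholesterol. Lipoprotein lipase cuts triglyceride in lipoproteins outside the cell and frees fatty acids, which the scavenger receptor CD36 and intracellular fatty acid binding proteins carry further. Esterified lipid is kept in droplets coated with perilipins. Cholesterol leaves through the ABC transporters ABCA1 and ABCG1 onto carriers such as apolipoprotein E, and the sterol-sensing LXR receptors and the fatty-acid-sensing receptor PPARγ are textbook activators of many of these genes.

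Among the promoters available for these genes, that of Abca1 carried the LXR-type repeat and is shown for that reason. RefSeq promoter windows on GRCm38.p6 were available for 5 of the 10 genes (Apoe, Cd36, Plin2, Abca1 and Pparg). The 250 bases before each start site were searched on both strands for an LXR-type direct repeat (GGTNA, 5 bases of any kind, then GGTNA), a PPAR-type direct repeat (GGTNA, 2 bases, then GGTNA), the E-box CACGTG, the TATA box TATAAA and the GC box GGGCGG. The LXR-type repeat was held by 0.621% of 32851 promoter windows of the same length, the PPAR-type repeat by 0.938%, the E-box by 6.02%, the TATA box by 12.4% and the GC box by 32.7%. Abca1 held the LXR-type repeat on the strand opposite the gene, the E-box, the TATA box and 2 GC boxes. These are shown in capitals in the order GC box, E-box, GC box, LXR-type repeat and TATA box, on the strand of the gene (chr4:53159896-53160145, minus strand).
Abca1 promoter: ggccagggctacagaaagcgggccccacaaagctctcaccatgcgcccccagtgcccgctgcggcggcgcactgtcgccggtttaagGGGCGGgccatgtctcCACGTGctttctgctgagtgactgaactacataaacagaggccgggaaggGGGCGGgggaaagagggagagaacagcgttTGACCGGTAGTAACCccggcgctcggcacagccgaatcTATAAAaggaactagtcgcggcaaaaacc
The LXR-type repeat lay 67 to 53 bases before the start site. None of the windows of Apoe, Cd36, Plin2 or Pparg held it, and none of the 5 genes held the PPAR-type repeat as spelled here. A match of letters is a description of the window and says nothing of whether a factor bound there in these cells.

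Library totals ranged from 4431184 to 8760679 counts. The library labelled Ptgs-competent replicate 3 stood apart from the rest: all 12 macrophage markers were detected in it, but their summed level was 6670 CPM (counts scaled to a common library size, here by the TMM method), against 17122 and 18418 in the other competent pools and 21950 to 26150 in the deficient pools. The markers that define melanoma cells (Mlana, Pmel, Tyr, Tyrp1, Dct, Sox10 and Slc45a2) had 0 counts in all 6 libraries, as did 6 of 8 adipocyte markers, among them Adipoq and Plin1, and 4 of 8 endothelial markers. The endothelial list summed to 92.9 to 217 CPM in the competent and 37.3 to 71.9 CPM in the deficient pools, most of it from Pecam1, which myeloid cells also express, except in deficient replicate 2. The other 3 melanoma markers, Mitf, Gpnmb and Sparc, are not specific to melanoma, and the sum of the list was 225 to 668 CPM in the competent and 75.2 to 109.7 CPM in the deficient pools. Sparc was lower in every deficient pool, while Mitf went the other way, at 1.91, 0 and 0.65 CPM against 10.6, 44.3 and 18.2 CPM. The neutrophil list, with Ly6g at 0 in all 6 libraries, summed to 620.2 to 724 CPM and 452 to 532 CPM, but its members differed in direction: Retnlg was at 20.2, 59.9 and 16.2 CPM in the competent and 123, 114 and 180 CPM in the deficient pools. 7 of 8 fibroblast markers had counts, and their summed level was 157 to 349 CPM in the competent and 15.9 to 51.2 CPM in the deficient pools. 5 of 8 platelet markers were at 0. The sum over that list was 5810 to 11822 CPM against 2618 to 3249 CPM, most of it from Pf4, a gene macrophages also express. Ppbp, of the same list, was at 972, 604 and 308 CPM in the competent and 21.0, 6.55 and 2.07 CPM in the deficient pools. Its adjusted p was 0.0324 in the edgeR quasi-likelihood test. The summed macrophage markers, most of them counts of Lyz2 and the C1q genes, were higher in every deficient pool than in any competent one. Single markers varied: the fitted fold, deficient over competent, was 0.80 for Ptprc, 0.94 for Mertk and 1.05 for Csf1r. That fold was 1.39 for Lyz2, 1.49 for Cd68 and 1.91 to 2.33 for Itgam, Emr1, Mrc1, Fcgr1 and the C1q genes. In sorted bulk RNA, fewer cells of a type and less RNA per cell cannot be told apart, and the part of these marker differences in the values below was not tested beyond the fits and ratios given beside them.

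**Figure D1:**
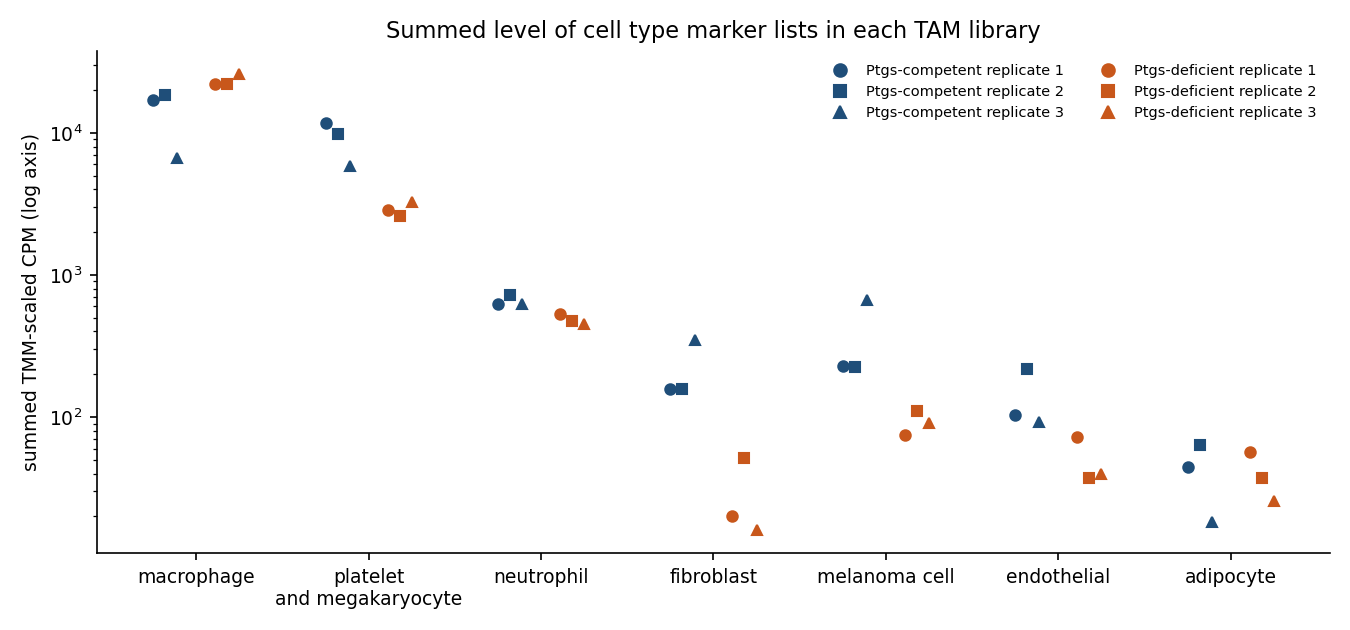
Summed TMM-scaled CPM (log axis) of 7 marker lists in each library, blue for Ptgs-competent and orange for Ptgs-deficient, with a symbol per replicate number. competent replicate 3 sits at 6670 CPM on the macrophage list, under the other 5 libraries, and the fibroblast list is at 157 to 349 CPM in the competent and 15.9 to 51.2 CPM in the deficient pools.

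In these libraries Apoe was by far the most abundant of the 10 genes, and Lpl was higher, and Clu and Fabp5 lower, in TAMs from Ptgs-deficient tumors in every library. Apoe and Abcg1 were also higher in every deficient pool, while Cd36, Fabp4, Plin2 and Abca1 overlapped between the groups. Together the 10 genes took 0.543%, 0.528% and 0.303% of all counts in competent replicates 1, 2 and 3 and 0.819%, 0.701% and 0.838% in the deficient replicates. Apoe alone made up 47.6% to 68.5% of that sum. Because the kit reads the 3′ end of each transcript, a count does not grow with transcript length. The handling of multi-mapping reads and PCR copies is not given, so levels of different genes can be compared only roughly.

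**Figure D2:**
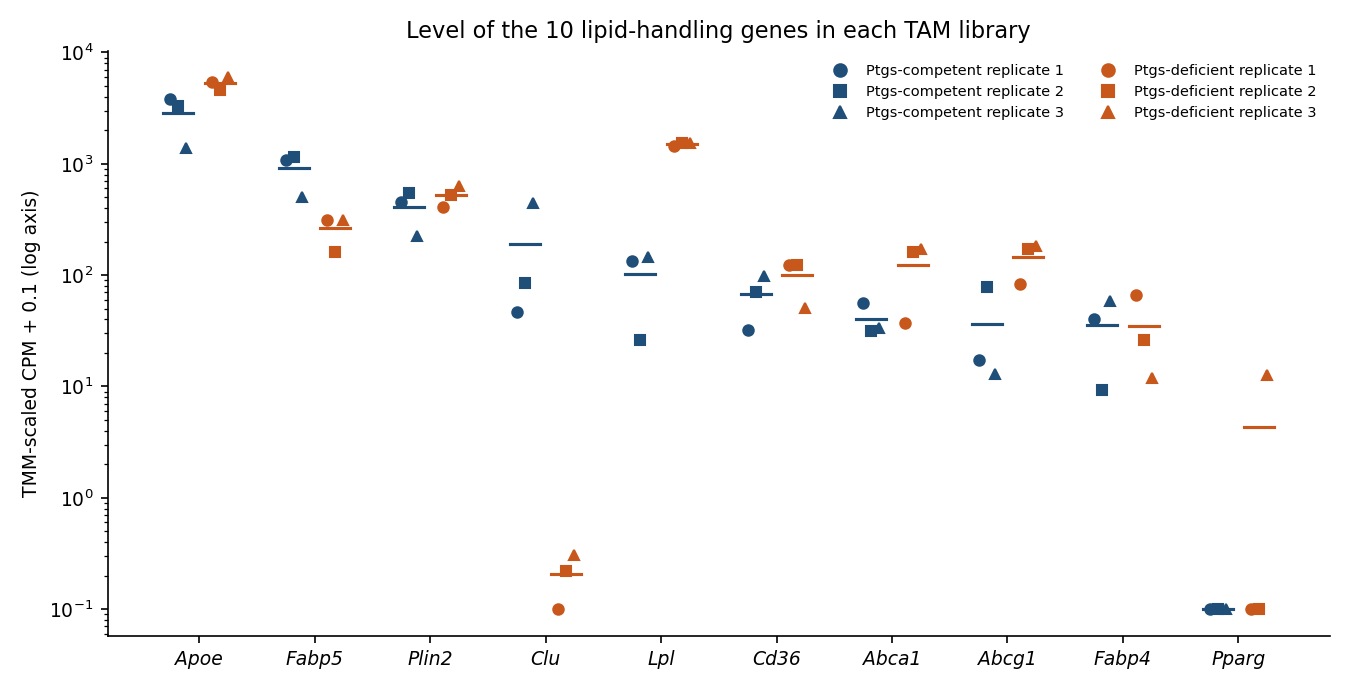
TMM-scaled CPM + 0.1 on a log axis for the 10 genes in each library, with a horizontal line at each group's mean and a symbol per replicate number (blue Ptgs-competent, orange Ptgs-deficient). Apoe lies at 1378 to 5976 CPM, the 3 deficient points of Lpl lie close together at 1441 to 1530 CPM, and the Ptgs-deficient points of Clu lie at or near 0.

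Lpl encodes lipoprotein lipase (ENSMUSG00000015568; GRCm38 chromosome 8, 68880491 to 68907448, plus strand). It had 837, 157 and 677 counts in the competent pools and 7899, 12851 and 7364 in the deficient pools. Scaled, these were 133, 25.8 and 146 CPM against 1441, 1530 and 1524 CPM. Every deficient pool lay above every competent one, and the deficient pools were nearly level with each other. The coefficient of variation was 65.0% in the Ptgs-competent group and 3.31% in the Ptgs-deficient group, the lowest of the 10 genes. The fitted log2 fold change, Ptgs-deficient over Ptgs-competent, was 3.88 ± 0.59 (SE, n = 3 per group), a 14.7-fold difference with a 95% interval of 5.94 to 36.6. By level, Lpl ranked 1257, 4788 and 1061 among all genes in the competent pools and 89, 101 and 104 in the deficient pools. Without competent replicate 3, its log2 fold change was 4.27 ± 0.66 (SE).

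Cd36 encodes the scavenger receptor that brings long-chain fatty acids and oxidized lipoprotein into the cell (ENSMUSG00000002944; chromosome 5, 17781690 to 17888801, minus strand). Its level was 32.4, 70.9 and 97.4 CPM in the competent pools and 124, 124 and 50.1 CPM in the deficient pools. deficient replicate 3 lay among the competent pools, so the groups overlapped. The log2 fold change was 0.57 ± 0.63 (SE), with a 95% interval of -0.83 to 1.97. Fold differences from 0.564 to 3.91 were therefore within the spread between libraries. When libraries were scaled to the summed macrophage markers in place of TMM, a setting chosen after the data were seen, the value turned to -0.63.

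The fatty acid binding proteins, small cytoplasmic carriers of fatty acids, differed in pattern. Fabp5, the epidermal-type member that macrophages also express (ENSMUSG00000027533; chromosome 3, 10012548 to 10016607, plus strand), had 6847, 6992 and 2336 counts in the competent pools and 1728, 1346 and 1521 in the deficient pools. These were 1091, 1148 and 504 CPM against 315, 160 and 315 CPM. All competent pools, replicate 3 included, lay above all deficient ones. The log2 fold change was -1.80 ± 0.42 (SE), a level 3.47-fold lower in the Ptgs-deficient group, with a 95% interval on the log2 scale of -2.74 to -0.85. Without competent replicate 3 it was -2.04 ± 0.34 (SE), and scaled to the macrophage markers -2.59 ± 0.44 (SE).

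Fabp4, the adipocyte-type member and a known PPARγ target (ENSMUSG00000062515; chromosome 3, 10204088 to 10208576, minus strand), was at 40.5, 9.19 and 58.0 CPM in the competent pools and 65.9, 26.1 and 11.8 CPM in the deficient pools. The groups lay over each other and each spanned several-fold. The log2 fold change was -0.05 ± 1.13 (SE), with a 95% interval of -2.57 to 2.46, so a difference several-fold in either direction was not detectable with these libraries. The sign turned in 4 of 6 fits that left out a library, and scaled to the macrophage markers the value was -1.32 ± 1.28 (SE). Counts of Fabp5 exceeded those of Fabp4 by 8.68 to 125-fold within the competent pools and by 4.79 to 26.7-fold within the deficient pools.

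Plin2 encodes perilipin 2, the coat protein of lipid droplets in most cells outside fat (ENSMUSG00000028494; chromosome 4, 86648386 to 86670060, minus strand). It was at 458, 549 and 225 CPM in the competent pools and 410, 519 and 627 CPM in the deficient pools. The groups overlapped, with competent replicate 3 the lowest library. The log2 fold change was 0.34 ± 0.39 (SE), with a 95% interval of -0.52 to 1.20, and 0.09 ± 0.30 (SE) without that library. Scaled to the macrophage markers it was -0.45 ± 0.40 (SE).

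Apoe encodes apolipoprotein E, which macrophages secrete as an acceptor of cholesterol (ENSMUSG00000002985; chromosome 7, 19696109 to 19699188, minus strand). It had 24155, 20189 and 6393 counts in the competent pools and 29443, 38750 and 28879 in the deficient pools. The levels were 3850, 3314 and 1378 CPM against 5372, 4614 and 5976 CPM. The groups did not overlap, and competent replicate 3 lay far under the rest. Apoe was the 14th to 23rd most abundant of all genes in 5 libraries and the 73rd in competent replicate 3. Its log2 fold change was 0.90 ± 0.40 (SE), or 1.87-fold, with a 95% interval of 0.02 to 1.79. Without competent replicate 3 it was 0.62 ± 0.26 (SE), and scaled to the macrophage markers 0.16 ± 0.40 (SE).

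Apoe lies in a cluster with the apolipoprotein genes Apoc1, Apoc2 and Apoc4. Apoc4 had 0 counts in every library, and Apoc1 had 94 counts in deficient replicate 2 and 0 in the others. Apoc2 had 194 to 794 counts in the competent and 302 to 612 in the deficient pools, which overlap. Likewise the close relatives of Fabp4 and Fabp5 on chromosome 3, Pmp2, Fabp9 and Fabp12, had 0 counts in every library.

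Clu encodes clusterin, a secreted lipid-binding chaperone also called apolipoprotein J (ENSMUSG00000022037; chromosome 14, 65968483 to 65981547, plus strand). It had 294, 522 and 2054 counts in the competent pools and 0, 1 and 1 in the deficient pools. In CPM the competent pools were at 46.9, 85.7 and 443, and every deficient pool was under the limit that 3 counts set, 0.357 to 0.621 CPM. Clu was thus detected in all competent and at most by 1 read in the deficient pools. Set against 3 counts in each deficient pool, its mean level was at least 377-fold lower in that group. That bound leans on competent replicate 3, which held the most Clu and the fewest macrophage marker counts. This library also had the highest fibroblast marker sum, 349 CPM against 157 and 159 CPM in the other competent pools. Sparc was at 600 CPM in it, against 180 and 126 CPM. Whether these values bear on Clu was not tested. Without competent replicate 3 the level was at least 130.3-fold lower, and without competent replicate 1 or 2 at least 519.6-fold or 481-fold lower. These limits cover counting error only.

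Abca1 encodes the transporter that moves cholesterol and phospholipid onto lipid-poor apolipoprotein (ENSMUSG00000015243; chromosome 4, 53030787 to 53159895, minus strand), and its promoter is the one printed above. It was at 55.9, 31.5 and 33.2 CPM in the competent pools and 37.4, 161 and 173 CPM in the deficient pools. deficient replicate 1 lay within the Ptgs-competent range, while replicates 2 and 3 lay above it. The log2 fold change was 1.62 ± 0.68 (SE), with a 95% interval of 0.10 to 3.14.

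Abcg1 encodes the transporter that passes cholesterol to mature high-density lipoprotein (ENSMUSG00000024030; chromosome 17, 31057675 to 31117988, plus strand). It was at 17.1, 78.1 and 12.7 CPM in the competent pools and 82.5, 172 and 182 CPM in the deficient pools. The groups did not overlap, but competent replicate 2 and deficient replicate 1 were nearly level. The log2 fold change was 2.02 ± 0.77 (SE), with a 95% interval of 0.31 to 3.72, and 3.29 without competent replicate 2, the highest of its group. deficient replicate 1 was the lowest of its group for both transporters. Scaled to the macrophage markers, the log2 fold changes of Abca1 and Abcg1 were 0.65 ± 0.86 (SE) and 1.37 ± 0.84 (SE). Abca1 had 3.28, 0.403 and 2.61 counts for each count of Abcg1 in the competent pools and 0.454, 0.938 and 0.948 in the deficient pools.

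Pparg, the gene of PPARγ (ENSMUSG00000000440; chromosome 6, 115360951 to 115490399, plus strand), had 61 counts in deficient replicate 3 and 0 in the other 5 libraries. It was not tested. A count of 0 allowed up to 0.357 to 0.647 CPM in those 5 libraries, and the level in deficient replicate 3 was 12.6 CPM. An annotated antisense gene, Gm44079, overlaps Pparg and is not among the genes with deposited counts. The strand setting of the counting was not stated.

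**Figure D3:**
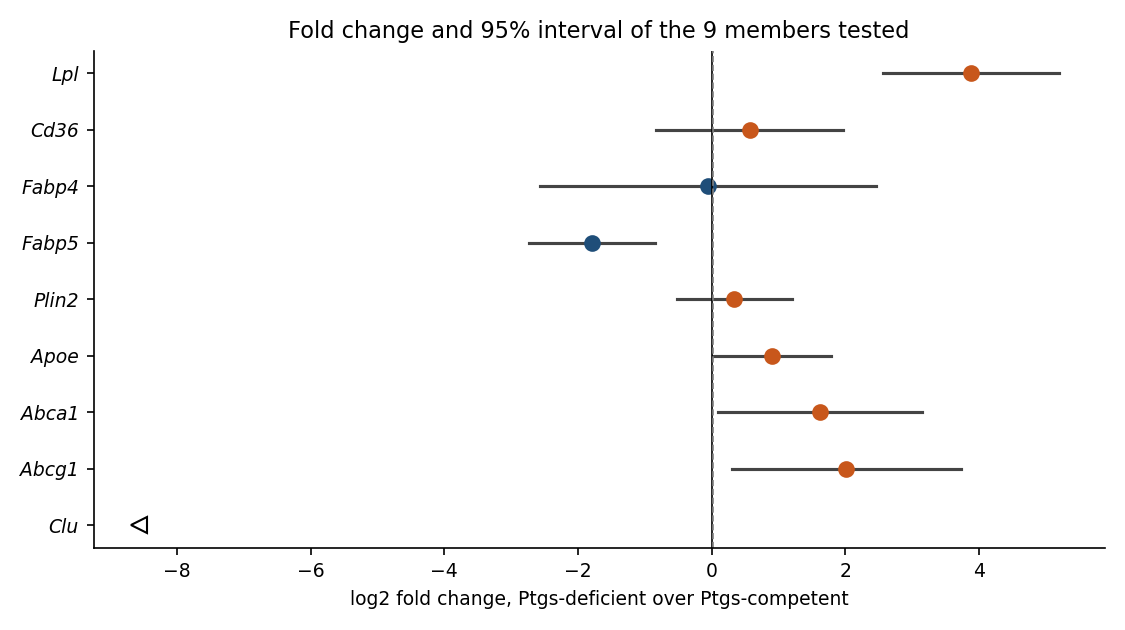
Fitted log2 fold change (Ptgs-deficient over Ptgs-competent) of the 9 genes tested, with 95% intervals as bars; the open triangle marks the lower-bound fold of Clu (at most -8.56), the solid line 0 and the dashed line the median of all genes tested (0.02). Lpl lies at 3.88 and Fabp5 at -1.80, while the intervals of Cd36, Fabp4 and Plin2 include 0.

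Against all genes tested, a call in the edgeR quasi-likelihood test being an adjusted p of at most 0.05 together with an absolute log2 fold change of at least 1.5, 14 genes (0.159%) were called higher and 5 (0.0569%) lower in the Ptgs-deficient group. Lpl was among those called higher and Clu among those called lower. At an unadjusted p under 0.05 there were 440 higher genes (5%) and 336 lower genes (3.82%). They included Lpl, Apoe, Abca1 and Abcg1 among the higher and Clu and Fabp5 among the lower. No overlap in CPM between the groups was found for 970 higher genes (11%) and 704 lower genes (8.01%), among them Lpl, Apoe and Abcg1 on the higher side and Clu and Fabp5 on the lower. Since the 10 genes were selected on this contrast, nothing is read from these counts. The median log2 fold change over the 9 genes tested was 0.57, also with Clu at its bound, and 0.02 over all genes. Lpl was still called without competent replicate 2 and without competent replicate 3, and not when any of the other 4 libraries was left out, with log2 fold changes of 3.43 to 4.27 over these 6 fits. Clu was still called without competent replicate 2 only. Neither was called when libraries were scaled to the macrophage markers, where the log2 fold change of Lpl was 2.64 ± 0.81 (SE). No fit changed the direction of either gene. Fabp5, not called in the quasi-likelihood test, was called by DESeq2, the edgeR likelihood ratio test, limma voom and the quasi-likelihood test without the filter.

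Ratios within a library do not depend on how libraries are scaled to each other. For each count of Fabp5 there were 0.122, 0.0225 and 0.290 counts of Lpl in the competent pools and 4.57, 9.55 and 4.84 in the deficient pools. By counts, Fabp5 was thus the more abundant of the pair in every competent pool and Lpl in every deficient pool. For each count of Fabp5 there were 3.53, 2.89 and 2.74 counts of Apoe in the competent pools, a narrow range that includes replicate 3, against 17.0, 28.8 and 19.0 in the deficient pools. Apoe exceeded Lpl by 9.44 to 129-fold in the competent and by 3.02 to 3.92-fold in the deficient pools.

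Set against the summed counts of the 12 macrophage markers of the same library, some genes kept their groups apart and others did not. Apoe was 22.5%, 18.0% and 20.7% of the marker counts in the competent pools and 24.3%, 21.0% and 22.9% in the deficient pools, so the groups overlapped. Fabp5 was 6.37%, 6.23% and 7.55% against 1.42%, 0.730% and 1.20%, and the low level of competent replicate 3 seen in CPM was gone. Lpl was 0.779%, 0.140% and 2.19% against 6.51%, 6.97% and 5.83%, still apart, with means 6.21-fold apart. Plin2, which overlapped in CPM, was 2.68%, 2.98% and 3.37% against 1.85%, 2.37% and 2.40%, lower in every deficient pool. Abcg1, apart in CPM, overlapped at 0.0996%, 0.424% and 0.191% against 0.372%, 0.784% and 0.696%. Clu stayed lower in every deficient pool, and Abca1, Cd36 and Fabp4 overlapped on this scale too. On this scale the median of all genes moved from 0.02 to -0.94 on the log2 scale in the corresponding fit, so the values are relative to macrophage markers and not to the whole library.

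**Figure D4:**
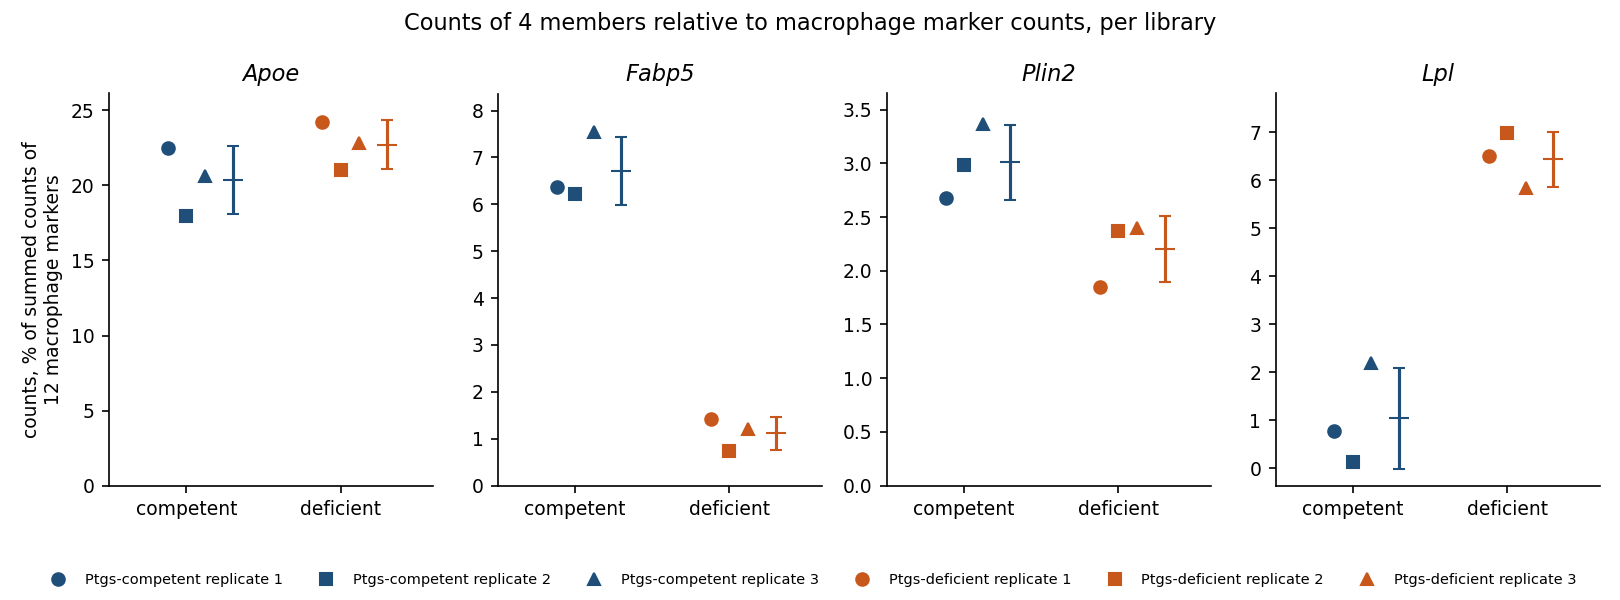
Counts of Apoe, Fabp5, Plin2 and Lpl as a percent of the summed counts of 12 macrophage markers of the same library, with a symbol per replicate number and the mean ± SD of each group (n = 3) beside the points. The Apoe groups overlap at 18.0% to 24.3%, Fabp5 and Plin2 lie lower and Lpl higher in all 3 deficient pools.

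The rest of lipid metabolism was read from 8 lists with 135 genes, none of them among the 10. 119 of these had a count, 92 were tested and 0 were called in either direction by the edgeR quasi-likelihood test. At an unadjusted p under 0.05, 3 were higher and 7 lower, and their median log2 fold change was -0.10 (0.02 over all genes). The corresponding numbers over all 8793 genes were 440 and 336. The nearest to a call was Pltp, the phospholipid transfer protein that remodels high-density lipoprotein, with 1067, 1177 and 270 counts in the competent pools and 3902, 5857 and 4537 in the deficient pools. It reached a log2 fold change of 2.48 ± 0.46 (SE) at an adjusted p of 0.0762, and it was called without competent replicate 3, by DESeq2, the likelihood ratio test and voom, without the filter and with the replicate block.

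Of the lipoprotein receptors and scavengers, 9 were tested, with a median log2 fold change of -0.66. The groups overlapped for Cxcl16, a chemokine that also binds oxidized lipoprotein, and for the scavenger receptor Stab1, at log2 fold changes of -1.14 and -0.66.

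Among genes of fatty acid uptake, binding and activation, 9 were tested, with a median of -0.03. Lipa, the lysosomal acid lipase that frees cholesterol and fatty acids from internalized lipoprotein, was at 49.3 ± 39.1 CPM and 172 ± 43.6 CPM (SD, n = 3), without overlap, at a log2 fold change of 1.80, where the adjusted p was 0.375. Angptl2, a secreted angiopoietin-like protein, had 133, 4 and 1072 counts against 0, 21 and 4. Most of these counts lay in competent replicate 3 alone, and the groups overlapped. The log2 fold change of Angptl2 was -6.19 ± 2.07 (SE) at an adjusted p of 0.346, and it was called by DESeq2 and without the filter. Acsl3, which activates fatty acids, overlapped between the groups.

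Of the lipid droplet and lipolysis genes, 14 were tested, with a median of -0.16 and none at an unadjusted p under 0.05. Hilpda, a hypoxia-inducible droplet protein and inhibitor of lipolysis, was at 862 ± 251 CPM and 509 ± 208 CPM (SD, n = 3), with a log2 fold change of -0.76 and overlapping groups. Pnpla2, the main triglyceride lipase of droplets, was at 61.8 ± 14.0 CPM and 16.9 ± 7.77 CPM (SD, n = 3), without overlap. Nceh1, a cholesteryl ester hydrolase, overlapped.

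Among 12 tested genes of cholesterol efflux and transport the median was 0.23. Beside Pltp, Tspo, an outer mitochondrial membrane protein that binds cholesterol, was at 265 ± 147 CPM and 535 ± 24.5 CPM (SD, n = 3), at a log2 fold change of 1.01, where the adjusted p was 0.4599. Cyp27a1, which makes the oxysterol 27-hydroxycholesterol, had 52, 0 and 0 counts in the competent pools and 213, 143 and 272 in the deficient pools. Its groups did not overlap, and the fitted log2 value was 3.74 ± 2.30 (SE) at an adjusted p of 0.863.

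The nuclear receptor and SREBP regulators held 12 tested genes with a median of -0.26. Nr1h3, the gene of the oxysterol receptor LXRα, had 1153, 744 and 578 counts in the competent pools and 278, 211 and 322 in the deficient pools. Its level was 143 ± 34.9 CPM against 47.5 ± 20.9 CPM (SD, n = 3), without overlap, and its log2 fold change was -1.60 with an adjusted p of 0.369. Ncor1, a corepressor that binds unliganded nuclear receptors, was at 238 ± 76.9 CPM against 69.6 ± 37.6 CPM (SD, n = 3), without overlap, at a log2 fold change of -1.77, where the adjusted p was 0.2697. Rxra, the shared partner of LXR and PPAR receptors, overlapped at a log2 fold change of 0.83.

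Of 12 tested genes of cholesterol synthesis, 3 were lower at an unadjusted p under 0.05 (3.82% of all genes tested) and the median was -0.64. Hmgcs1, which makes HMG-CoA, had 450, 645 and 640 counts in the competent pools and 256, 164 and 88 in the deficient pools, a log2 fold change of -1.90 with an adjusted p of 0.376. Cyp51, the sterol demethylase, and Pmvk, phosphomevalonate kinase, were at log2 fold changes of -2.64 and -2.22 with adjusted p of 0.4602 and 0.463. Cyp51 was at 17.4, 30.0 and 215 CPM against 17.2, 10.5 and 14.5 CPM, so that most of its difference lay in competent replicate 3, and competent replicate 1 was nearly level with deficient replicate 1. The groups of Hmgcs1 and Pmvk did not overlap, and none of these genes was called.

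In the fatty acid synthesis list, 8 genes were tested, with a median of -0.06 and none past an unadjusted p of 0.05. The groups overlapped for the elongase Elovl1, for Acly, which makes cytosolic acetyl-CoA, and for the synthase Fasn. In the fatty acid oxidation list, 16 genes were tested, with a median of 0.41 and again none past that p. Cpt1a, the gate of fatty acids into mitochondria, had 242, 391 and 0 counts against 919, 856 and 876, without overlap, the log2 fold change being 2.13 ± 1.27 (SE) at an adjusted p of 0.8397. Eci1, an isomerase of the oxidation of unsaturated fatty acids, and Etfb, an electron transfer flavoprotein subunit, overlapped.

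**Figure D5:**
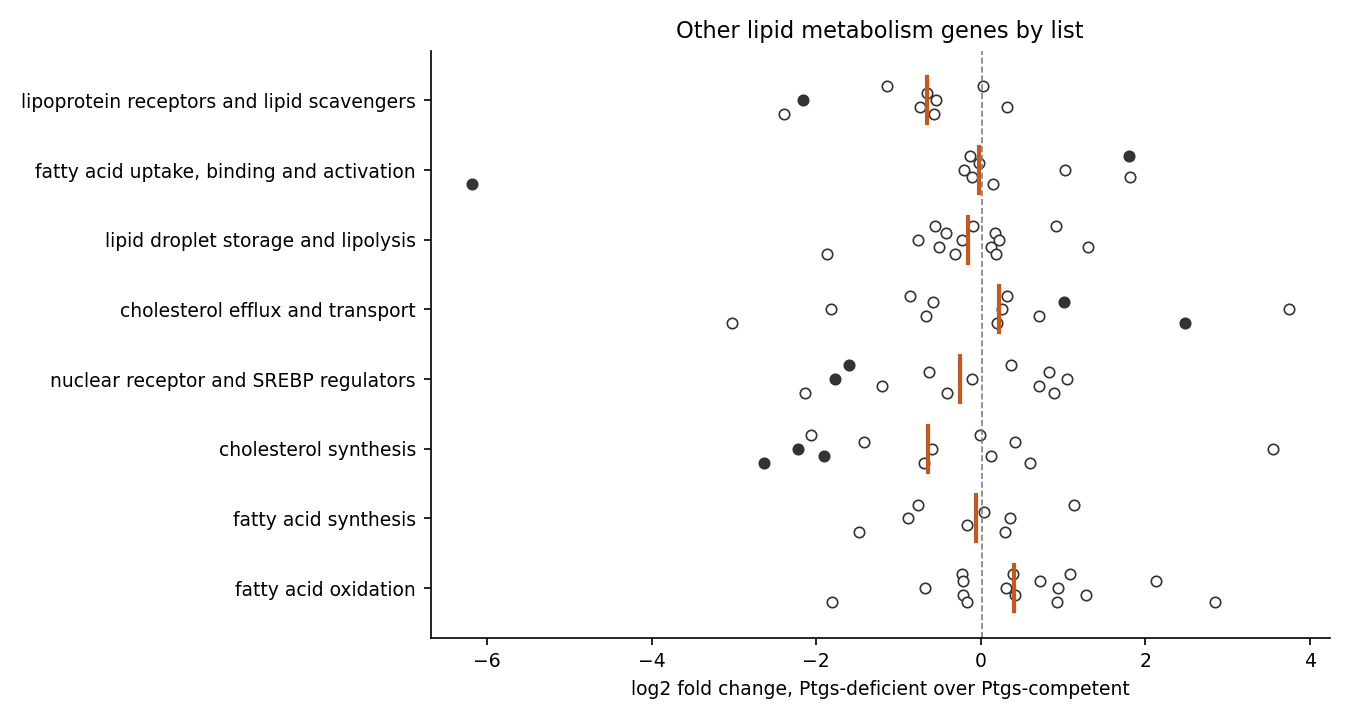
Log2 fold change (Ptgs-deficient over Ptgs-competent) of the 92 tested genes of 8 lipid metabolism lists; filled circles have an unadjusted p under 0.05, orange bars are list medians, the dashed line is the median of all genes tested (0.02), and the vertical spread within a list has no meaning. List medians run from -0.66 (lipoprotein receptors and lipid scavengers) to 0.41 (fatty acid oxidation), and none of the genes was called.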

How the data were processed

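The authors deposited 1 table of raw read counts per Ensembl gene for 6 libraries. Per the study's methods and the submitters' processing notes, 3′ libraries (QuantSeq FWD) were made from sub-nanogram RNA, reads were trimmed (BBDUK, fqtrim, cutadapt), aligned to GRCm38 with STAR and counted with featureCounts. Unique molecular identifiers, strand setting and multi-mapping are not given in the sources used here, so PCR copies count as reads.

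The fits used edgeR 4.0.16 under R 4.3.3. Low genes were removed with filterByExpr (minimum count 10, total 15) and libraries scaled by TMM and compared by the quasi-likelihood test, two-sided, with Benjamini-Hochberg adjustment over 8793 genes. Called genes had an FDR of 0.05 or lower and an absolute log2 fold change of 1.5 or more, the study's definition. The fit was tested on simulated data. CPM used kept-gene totals multiplied by TMM factors, and 3 counts per library were the floor. Positions come from GENCODE on GRCm38 and promoters from RefSeq. The genes, lists and alternatives (DESeq2 1.42.0, limma 3.58.1, other scalings and filters, each library left out) were chosen with earlier results of these data known. Named were all 10 genes and, of each list, up to 3 tested genes with the smallest p plus any called; 1 gene so chosen is not reported here. Columns of no sample numbered 0.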

Additional observations from a re-analysis of the deposited data

How the results depend on the processing

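Other tests kept their own scaling or weights, and the other settings were changed alone. The count of genes called was 19 with the quasi-likelihood test and 328 with DESeq2 (52.7% of them higher, against 73.7% of the 19), 241 with the edgeR likelihood ratio test (56.4% higher), 123 with limma voom and sample quality weights (51.2% higher) and 252 without the filter (48.4% higher). It was 1 with scaling to macrophage markers, chosen after the data were seen, and 0 to 25 when a library was left out. It was 0 without Ptgs-competent replicate 1 (1231 genes at an unadjusted p under 0.05), 11 without Ptgs-competent replicate 2, 25 without Ptgs-competent replicate 3, and 2, 4 and 3 without Ptgs-deficient replicates 1, 2 and 3. Of the 135 pathway genes, 3 were called by DESeq2, 1 each by the likelihood ratio test, voom and the replicate block, 2 without the filter, and 0 to 1 with a library left out. Lpl ranged from 3.43 to 4.27 with a library left out and was 2.64 with marker scaling. The fitted value of Clu, which depends on the prior count, ranged from -11.1 to -8.97 and was -12.1. Neither was called with marker scaling. Abcg1 was 3.29 without Ptgs-competent replicate 2. Cd36 and Plin2 turned to -0.63 and -0.45 with marker scaling. Fabp4 and Fabp5 were -1.32 and -2.59 with that scaling. Fabp4 ranged from -0.89 to 0.52 with a library left out. Fabp5 was -1.83 with DESeq2, -1.80 with the likelihood ratio test and without the filter and -1.96 with voom, past the threshold in each. With the replicate block 77 genes were called (63.6% higher) and Fabp4 turned to 0.069. Same-numbered libraries deviated with correlations of -0.042 to -0.017, and differently numbered ones with -0.013 to 0.043. With 3 libraries per group these values cannot show whether the numbers pair the libraries, and the labels do not say. The median of all genes moved from 0.02 to 0.39 with voom, to 0.26 with the block and to -0.94 with marker scaling. In the cases where calls changed, the cause was not tested. With 3 libraries per group and a common biological coefficient of variation of 1.26, differences of several-fold in low genes such as Fabp4 were not detectable.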
